A study of Mus musculus with 24 samples.

Results

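Tunicamycin (TM) and thapsigargin (TG) were compared in mouse embryonic fibroblasts (MEFs) that lack the ubiquitin ligases Siah1a and Siah2 (Siah1a-/-::Siah2-/-, KO). The comparison uses the 4 of 24 Illumina Mouse-6 BeadChip arrays whose labels give KO MEFs treated for 6 h with TM (2 arrays) or with TG (2 arrays), and log2 differences are TM minus TG. It was set beside 2 arrays of untreated KO MEFs and beside the same treatments in wild-type (WT) MEFs, with 2 arrays for TM and 2 for TG. The other 14 arrays, of untreated WT MEFs and of cells of both genotypes deprived of oxygen, glucose or both for 12 h, entered only the estimate of the spread between duplicates.

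TM and TG disturb the endoplasmic reticulum (ER) at different steps. TM inhibits the enzyme Dpagt1, which starts the sugar chain that is put on asparagines of new proteins, whereas TG inhibits the SERCA calcium pumps, of which Atp2a2 is the common form, and drains calcium from the ER. Both leave misfolded proteins in the ER and set off the unfolded protein response (UPR). In that response the kinase PERK slows translation and favours the transcription factor ATF4, ATF6 is cut to release a transcription factor, and IRE1 splices Xbp1 mRNA and can also cut other mRNAs at the ER membrane, a process called IRE1-dependent decay.

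The methods treat cells in duplicate without saying whether the duplicates came from separate cultures or embryos, so p-values measure only the spread between these arrays, which may be technical. The culture methods give a single dose of TG and a range of doses of TM, without saying which was used for the arrays, so the contrast is between 2 treatments at 1 dose each and not between matched doses. Array names printed with the study's heat map, and not the sample labels, place the TM and TG arrays on the same BeadChips and the untreated KO arrays on others. By that reading, chip and treatment cannot be told apart against untreated cells. TM and TG would share chips, but the main fit held no term for the chip. Duplicates correlated at r = 0.990 (TM), 0.988 (TG) and 0.981 (untreated) over the kept probes. In bulk RNA, fewer cells of a type and less RNA per cell cannot be told apart.

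Both deleted genes were lower in the KO arrays than in the WT arrays, although the Siah2 probe stayed above background in KO MEFs under both drugs. Siah1a had intensities of 178 and 214 under TM and 241 and 237 under TG in KO MEFs, close to the background level of 233, against 1793 and 1553 under TM and 1839 and 1728 under TG in WT MEFs. Siah2 stood at 454 and 453 under TM and 656 and 515 under TG in KO MEFs, against 1986 and 1537 under TM and 2014 and 1625 under TG in WT MEFs. The paralog Siah1b, which the KO MEFs keep, had 1271 and 1262 under TM and 1733 and 1333 under TG, and none of these 3 genes passed the test between TM and TG in KO MEFs. Of 12 fibroblast markers, 11 were above background under TM or TG. Of 23 measured markers of epithelial, endothelial, blood, muscle and neural cells, 14 were above background and 0 were called between TM and TG, and their sums per list were 810 to 3674 under TM and 825 to 3577 under TG.

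Among 13325 genes measured, 29 (0.218%) were higher and 25 (0.188%) lower under TM than under TG, where a call needed a difference of 2-fold or more and a limma p below 0.05 after Benjamini-Hochberg adjustment. For each of these 54 genes, both TM arrays lay on the same side of both TG arrays. The same arrays chose these genes, so this was largely set in advance. Of all genes, 23% lay higher and 23.4% lower under TM without overlap. The genes higher under TM included mRNAs known to be cut by IRE1, extracellular matrix proteins and some lysosomal proteins, although a fixed list of 33 autophagy and lysosome genes held 0 calls. Those lower under TM included the ER chaperone Hspa5, the stress regulators Atf3 and Fgf21, and genes of inflammatory signalling. The differences reached 6.2-fold for Scara3 and 4.18-fold for Fgf21, and 6 genes in each direction differed by 3-fold or more. Over all genes the median difference was 0.00 on the log2 scale. The medians of the deposited, normalized arrays lay within 0.129% of each other, so a value near 0 was largely set in advance. With the replicate number as a block, 45 genes (0.338%) were higher and 41 (0.308%) lower, including all 54. Without TM replicate 1, TG replicate 1, TM replicate 2 or TG replicate 2, the calls fell to 11, 6, 7 and 10 higher and to 8, 6, 7 and 16 lower, in that order. Of the called genes named by rule, only Scara3, Fbln2, Prelp, Angptl7 and Atf3 were called in each of these 4 fits.

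**Figure D1:**
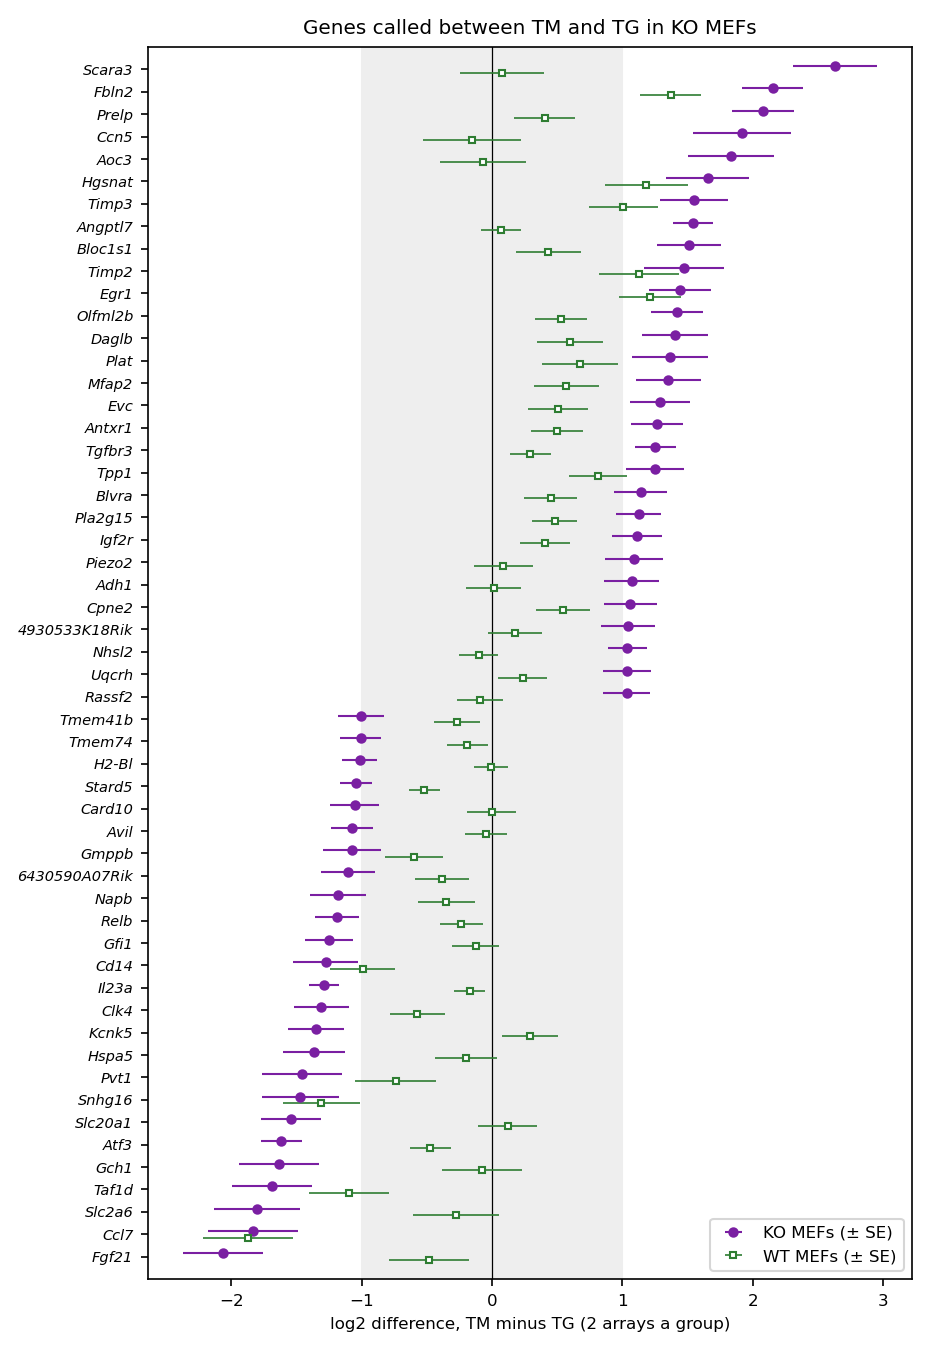
Log2 difference between TM and TG (horizontal axis, mean of 2 arrays minus mean of 2 arrays, bars ± SE of the limma fit) for the 54 genes called in KO MEFs, in KO MEFs (filled circles) and in WT MEFs (open squares). The shaded band spans differences under 2-fold; KO values run from 2.63 for Scara3 to -2.06 for Fgf21, and most WT values lie nearer to 0.

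Ddit3 and Trib3, markers of ER stress, were higher than untreated under both drugs and were not called between them. Ddit3, the CHOP transcription factor downstream of ATF4, had intensities of 50250 and 43160 under TM, 57820 and 49210 under TG and 1227 and 1134 in untreated KO MEFs. Its TM and TG arrays overlapped, and the difference was -0.20 ± 0.40 (SE, limma adjusted p = 0.999). Within each replicate number, the TM array of Ddit3 was below the TG array. Trib3, a pseudokinase target of CHOP, gave 32720 and 25880 under TM, 40730 and 32120 under TG and 947 and 1104 in untreated cells. Its treated arrays also overlapped (difference -0.31 ± 0.28, SE), again with TM below TG within each replicate number.

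Xbp1 and genes of ER protein quality control were likewise called in neither direction between the drugs. The probe of Xbp1, the transcription factor whose mRNA IRE1 splices, gave 24090 and 23970 under TM, 25960 and 34980 under TG and 4248 and 6242 in untreated cells. Herpud1, an ER membrane protein of ER-associated degradation, gave 56940 and 59320 under TM and 54270 and 57580 under TG, against 5384 and 10160 in untreated cells. Its treated arrays overlapped, with TM above TG within each replicate number. Dnajb9, a co-chaperone of Hspa5 and target of Xbp1, reached 11760 and 13690 under TM and 16230 and 19270 under TG, with untreated arrays at 1638 and 1618. Both TM arrays of Dnajb9 were below both TG arrays, but the difference of -0.48 ± 0.24 (SE) did not pass the test (limma adjusted p = 0.653). Herpud1 and Ddit3 lie near the top of the arrays' range, whose highest gene intensity was 66420, with 26 and 59 genes above them in mean intensity. Whether this limits differences there was not tested, and equal levels under both drugs cannot be read from them.

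Hspa5, the main HSP70 chaperone of the ER lumen (BiP), was called lower under TM. It had 4226 and 4482 under TM, 10820 and 11580 under TG and 367 and 509 in untreated KO MEFs. Thus TM arrays stood between untreated and TG arrays with no overlap, and Hspa5 was 2.57-fold lower under TM than under TG (log2 difference -1.36 ± 0.24, SE, limma adjusted p = 0.0148). In WT MEFs the TM arrays gave 9854 and 8731 and the TG arrays 11670 and 9685, which overlapped. Hsp90b1, the HSP90 of the ER, had 53040 and 57280 under TM, 58270 and 61030 under TG and 32720 and 41520 in untreated cells, and did not pass the test between the drugs, with only 23 genes above it in mean intensity and the same limit of range. Of the 32 ER chaperones and folding enzymes measured, 0 were higher and 1 (Hspa5) was lower, against 0.218% and 0.188% of all genes. The median difference was -0.21 against 0.00 over all genes. Without overlap, 16 members lay below TG, where 23.4% of all genes were below and 23% above. Of 22 UPR sensors and transcription factors, 0 were higher and 1 (Atf3) was lower, against 0.218% and 0.188% of all genes, with a median of -0.24. The block, which called 0.308% of all genes lower, added Klf4 to those lower. None of the 24 genes of ER-associated degradation was called (0 higher, 0 lower; median -0.15).

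Promoter letters are shown for called and uncalled genes of the ER stress response, to set their elements beside the values. The ER stress element, bound by ATF6 and Xbp1 with NF-Y, was searched as CCAAT, 9 bases and CCACG on both strands in RefSeq windows of 300 bases (GRCm38.p6, 250 before to 50 after each gene's start), and the ATF4 element as TGATG, any base, then AAT or AAC on both strands. Capitals mark the matched letters, and each line reads in the direction of its gene.
Hspa5, chr2:34772021-34772047, plus strand, ER stress element: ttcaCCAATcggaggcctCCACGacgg
Hsp90b1, chr10:86705634-86705660, minus strand, ER stress element: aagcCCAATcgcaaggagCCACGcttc
Fgf21, chr7:45615618-45615634, minus strand, ATF4 element on the opposite strand: ccccATTGCATCAtccg
Chac1, chr2:119351044-119351060, plus strand, ATF4 element on the opposite strand: tgccGTTGCATCActcc
Asns, chr6:7693220-7693236, minus strand, ATF4 element: cacaTGATGAAACttcc

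Of the 25 genes lower under TM, 17 had a window; 1 (Hspa5, 5.88%) held the ER stress element and 1 (Fgf21, 5.88%) the ATF4 element, against 0.14% and 1.31% of the 10727 tested genes with a window. None of the 19 genes higher under TM that had a window held either element. The CCACG part of the ER stress element alone, which the whole element contains, was found in 6 of these 19 (31.6%) and 11 of those 17 (64.7%), against 48.8% of the tested genes. Hsp90b1 matched the ER stress element 212 bases before its start and, on the opposite strand and not shown, 107 bases before it. Chac1, Asns and Herpud1 (not shown) matched the ATF4 element. On the element's own strand, Chac1 and Herpud1 differed from Fgf21 at the last letter only, and Asns there and at the free base. Hsp90b1, Chac1, Asns and Herpud1 were called in neither direction. A match is a description of the letters and not a site of binding.

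For the PERK and ATF4 branch, most measured members were called higher than untreated under each drug, and 2 were called lower under TM than under TG. Against untreated KO MEFs, 26 of 40 measured members were higher under TM and 30 under TG and 0 were lower under either, where 1.82% of all genes were higher and 1.37% lower under TM and 3.02% higher and 2.33% lower under TG (the 2 comparisons share the untreated arrays; with the block, 2.36% were higher and 2.21% lower under TM). Between the drugs 0 members were higher and 2 (Fgf21 and Atf3) lower, against 0.218% and 0.188% of all genes. The median difference was -0.28, and 27 of the 40 lay below TG without overlap, against 23.4% of all genes.

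Fgf21, a secreted metabolic hormone and ATF4 target, had 1319 and 1192 under TM, 6230 and 4412 under TG and 213 and 220 in untreated KO MEFs, where it was not above background. The TM arrays were 4.18-fold below the TG arrays (-2.06 ± 0.31, SE, limma adjusted p = 0.00438), the largest fold among the 25 genes lower under TM. Atf3, a stress-induced transcription factor of the ATF/CREB family, gave 981 and 1026 under TM and 2810 and 3356 under TG, against 201 and 236 in untreated cells. It was 3.06-fold lower under TM (-1.61 ± 0.16, SE, limma adjusted p = 6.61e-05).

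Other ATF4 targets did not pass the test between the drugs. Chac1, which degrades glutathione, had 26500 and 32120 under TM, 49210 and 41520 under TG and 1531 and 1587 in untreated cells (difference -0.63 ± 0.28, SE). Ppp1r15a, the GADD34 subunit that restores translation, had 5747 and 4706 under TM, 9050 and 8861 under TG and 974 and 849 in untreated cells (-0.78 ± 0.32, SE). In both genes the TM and TG arrays did not overlap, at limma adjusted p = 0.577 for Chac1 and 0.499 for Ppp1r15a. The cystine transporter Slc7a11 was nearest to the threshold, with 1647 and 1702 under TM and 2946 and 3393 under TG (-0.92 ± 0.20, SE, limma adjusted p = 0.0509). Asns, which makes asparagine, and Atf4 itself differed by -0.36 ± 0.20 and -0.27 ± 0.15 (SE), and neither passed the test.

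**Figure D2:**
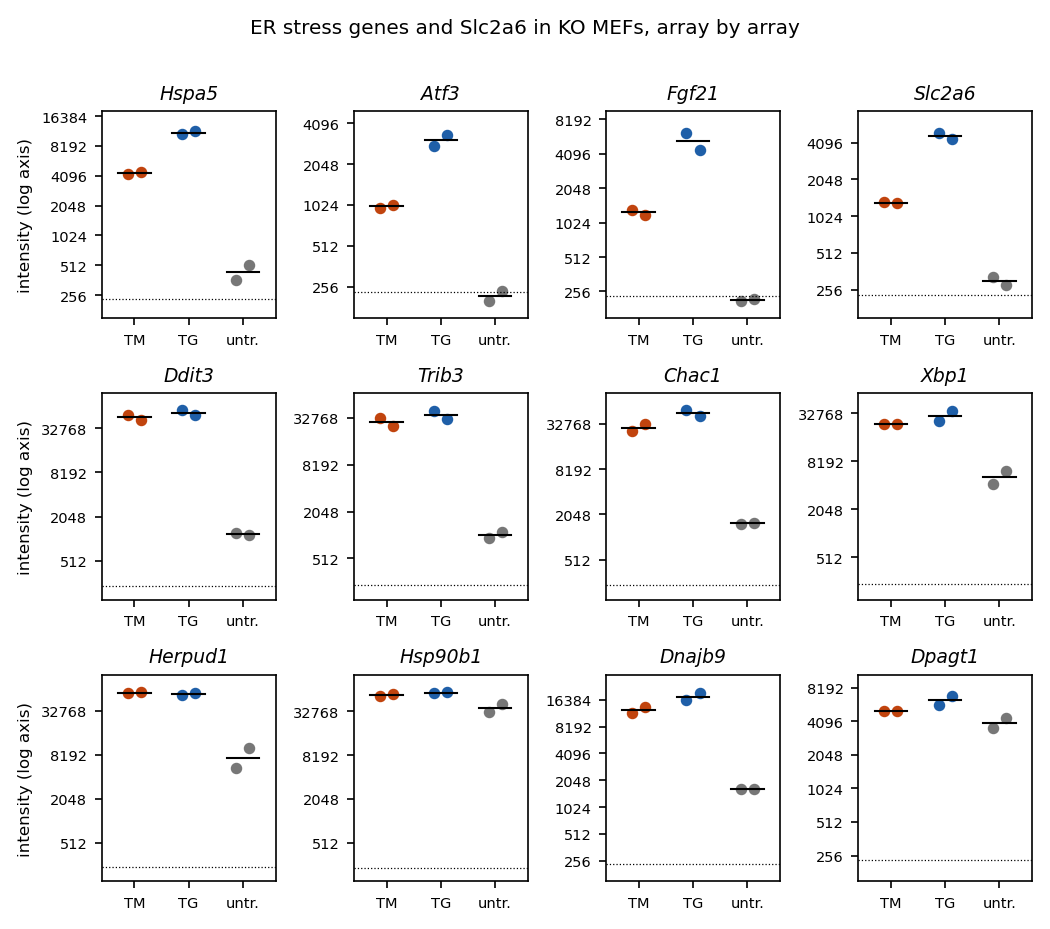
Array intensities (vertical log axis, each panel with its own range) of 11 ER stress genes and the glucose transporter gene Slc2a6 in KO MEFs under TM, under TG and untreated; points are single arrays, bars the mean of their log2 values, and the dotted line the background level of 233. The called genes Hspa5, Atf3, Fgf21 and Slc2a6 show TM arrays between untreated and TG arrays. So do Chac1, Xbp1, Hsp90b1, Dnajb9 and Dpagt1, which were not called, while Ddit3, Trib3 and Herpud1 show overlapping TM and TG arrays.

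The targets of the drugs themselves were not called. Dpagt1, the enzyme blocked by TM, had 5089 and 5028 under TM, 5737 and 6919 under TG and 3568 and 4335 in untreated KO MEFs (-0.32 ± 0.18, SE). Atp2a2, the SERCA2 pump blocked by TG, had 12610 and 12360 under TM, 13280 and 14480 under TG and 5612 and 5384 in untreated cells (-0.15 ± 0.27, SE), and was higher than untreated under both drugs (limma adjusted p = 0.0173 for TM and 0.00468 for TG). The dolichol pathway and the oligosaccharyltransferase build and transfer the sugar chain, and their 49 measured genes had a median of -0.03. Of these, 0 were higher and 1 was lower under TM, against 0.218% and 0.188% of all genes. That gene, Gmppb, which makes the mannose donor of the chain, gave 915 and 999 under TM and 2069 and 1955 under TG, against 564 and 528 in untreated cells (-1.07 ± 0.22, SE, limma adjusted p = 0.0428). It was no longer called after normexp background correction. None of 26 ER calcium pumps, channels and store sensors was called (median 0.01).

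Of 9 measured substrates of IRE1-dependent decay, 3 (Scara3, Hgsnat and Bloc1s1) were called higher under TM and 0 lower, against 0.218% and 0.188% of all genes. With the block 4 were higher, Col6a1 being added, against 0.338% of all genes. The 9 members had a median difference of 0.88, and all 9 had both TM arrays above both TG arrays, against 23% of all genes. Scara3, a scavenger receptor, had 2722 and 2631 under TM, 471 and 395 under TG and 3195 and 4872 in untreated KO MEFs. The 2 TG arrays stood far below the other 4, and Scara3 was 6.2-fold higher under TM (2.63 ± 0.32, SE, limma adjusted p = 0.000694).

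Bloc1s1, a subunit of the complexes that position lysosomes and related organelles, had 2856 and 2059 under TM, 915 and 793 under TG and 3370 and 2450 in untreated cells (1.51 ± 0.25, SE, limma adjusted p = 0.00894). Hgsnat, a lysosomal enzyme of heparan sulfate breakdown, had 1916 and 2759 under TM, 632 and 843 under TG and 2830 and 4223 in untreated cells (1.66 ± 0.32, SE, limma adjusted p = 0.0259). In both genes the TG arrays were below the TM and the untreated arrays. The other 6 members differed by 0.31 (Sparc) to 1.68 (Col6a1) and did not pass the test. In WT MEFs the same 9 genes had a median difference of 0.09, and 5 of them lay higher under TM without overlap, where 21.3% of all genes were higher and 19.2% lower, and Hgsnat was called higher with the block.

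**Figure D3:**
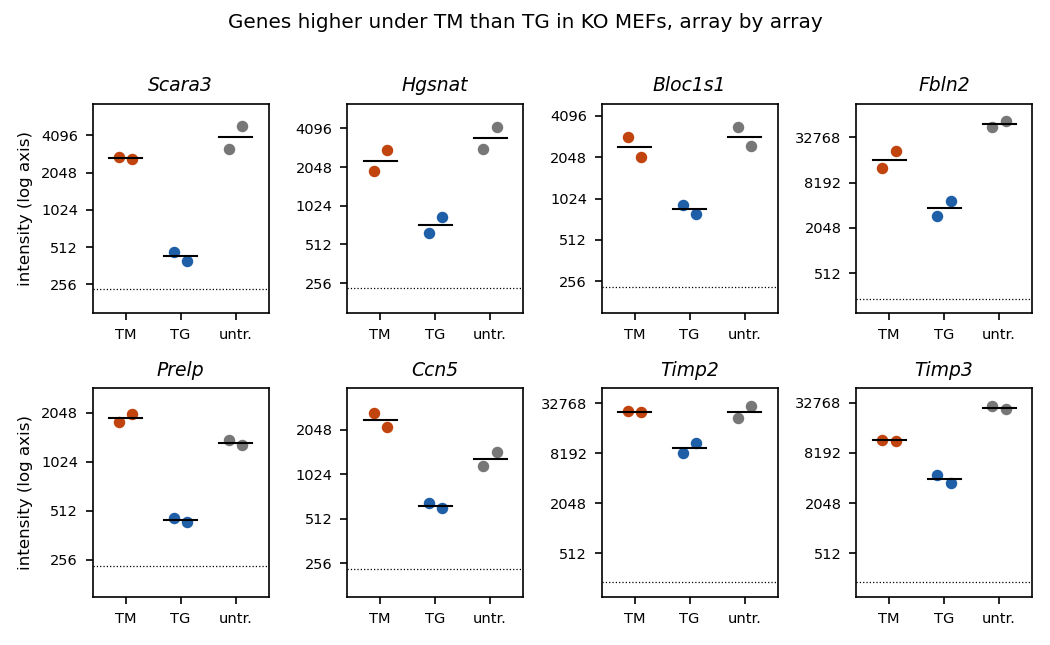
Array intensities (vertical log axis, each panel with its own range) of 8 genes higher under TM than under TG in KO MEFs; points are single arrays, bars the mean of their log2 values, and the dotted line the background level of 233. In Scara3, Hgsnat, Bloc1s1 and Timp2 the untreated arrays lie with or near the TM arrays, and the TG arrays lie below both.

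Of 40 measured fibroblast matrix genes, 2 (Timp2 and Timp3) were called higher under TM and 0 lower, against 0.218% and 0.188% of all genes. The median difference was 0.42, with 32 members above 0, and 27 lay above TG without overlap, against 23% of all genes. In WT MEFs 27 also did so, against 21.3% of all genes, and the median was 0.35. With the block 4 were higher, Mmp14 and Col6a1 being added, against 0.338% of all genes, and Col6a1 is also on the list of decay substrates. Summed over the 12 fibroblast markers, which include matrix genes, intensities were 130900 and 141500 under TM, 76790 and 99100 under TG and 88580 and 108800 in untreated KO MEFs, and the part of the cells' make-up in these differences was not tested.

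Timp3, a matrix-bound inhibitor of metalloproteinases, had 11850 and 11480 under TM, 4415 and 3588 under TG and 29700 and 27910 in untreated cells, so both drugs lay below untreated and TG lowest (1.55 ± 0.26, SE, limma adjusted p = 0.012). Timp2, a soluble inhibitor of the same family, had 26570 and 25560 under TM, 8184 and 10800 under TG and 21940 and 30030 in untreated cells, with only TG set apart (1.47 ± 0.31, SE, limma adjusted p = 0.0428). The call of Timp2 was lost without a filter on dim probes and after normexp correction.

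Several other secreted proteins outside the list stood among the highest genes. Fbln2, a fibulin of elastic fibres and basement membranes, gave 12800 and 21340 under TM, 2960 and 4663 under TG and 45360 and 53860 in untreated cells, in steps that did not overlap (2.15 ± 0.23, SE, limma adjusted p = 0.000202). Its other probes gave differences of 1.45 and 0.71. Prelp, a leucine-rich matrix proteoglycan, had 1795 and 1999 under TM, 461 and 436 under TG and 1381 and 1301 in untreated cells (2.08 ± 0.24, SE, limma adjusted p = 0.000339). Ccn5, a matricellular protein of the CCN family, had 2657 and 2125 under TM, 652 and 602 under TG and 1165 and 1435 in untreated cells (1.92 ± 0.38, SE, limma adjusted p = 0.0299). In Prelp and Ccn5 the untreated arrays lay between the drugs.

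Angptl7, a secreted angiopoietin-like protein, had 737 and 818 under TM, 259 and 273 under TG and 381 and 282 in untreated cells, so that only the TM arrays stood well off the background level (1.54 ± 0.15, SE, limma adjusted p = 7.26e-05). Aoc3, a cell surface amine oxidase, had 2477 and 2252 under TM, 728 and 601 under TG and 325 and 782 in untreated cells (1.84 ± 0.33, SE, limma adjusted p = 0.017). A second Aoc3 probe of low intensity differed by -0.24, and the mean of both was not called. Olfml2b, a secreted olfactomedin-like protein, had 5128 and 5988 under TM, 2023 and 2116 under TG and 2437 and 3325 in untreated cells (1.42 ± 0.20, SE). Nid1, a basement membrane linker named after its values were seen, had 3690 and 3321 under TM, 664 and 754 under TG and 28440 and 10430 in untreated cells. Its difference of 2.31 ± 0.61 (SE) did not pass the test (limma adjusted p = 0.14) and did so with the block (limma adjusted p = 0.0052).

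Egr1, an immediate early transcription factor, was lowest under TG. It had 13730 and 12960 under TM, 5164 and 4661 under TG and 19440 and 17390 in untreated KO MEFs (1.44 ± 0.24, SE, limma adjusted p = 0.00941). WT MEFs gave 27570 and 28580 under TM and 12190 and 12050 under TG, in the same order without overlap. Among 33 immediate early genes and feedback genes of the MAP kinases, 1 (Egr1) was higher and 1 (Atf3) lower, against 0.218% and 0.188% of all genes. The median was -0.06. With the block 3 were lower, Junb and Klf4 being added, against 0.308% of all genes.

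The remaining 17 genes higher under TM differed by 2.05-fold to 2.65-fold. Named after their values were seen, they included Tpp1, a lysosomal peptidase (949 and 881 under TM, 434 and 339 under TG), Pla2g15, a lysosomal phospholipase (3736 and 3868 under TM, 1732 and 1751 under TG), and Igf2r, the receptor that carries enzymes to lysosomes (2061 and 2410 under TM, 1088 and 975 under TG). They also held the plasminogen activator Plat, the betaglycan Tgfbr3, the collagen receptor Antxr1 and the mechanosensitive channel Piezo2. As a fixed list, 33 autophagy and lysosome genes gave 0 calls in either direction and a median of 0.07.

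Of 33 chemokines and NF-kappaB targets, 0 were called higher under TM and 2 (Ccl7 and Relb) lower, against 0.188% of all genes lower. With the block 3 were lower, Ccl2 being added, against 0.308% of all genes. The median difference was -0.42, with 27 members below 0, and 22 lay below TG without overlap, against 23.4% of all genes. In WT MEFs the median was -0.12, 15 members lay below TG without overlap, against 19.2% of all genes, and Ccl7 was called lower with the block.

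Ccl7, a chemokine for monocytes, had 1774 and 1405 under TM, 6563 and 4811 under TG and 8704 and 5885 in untreated KO MEFs, so that TM arrays were below both other groups and TG and untreated arrays overlapped (-1.83 ± 0.35, SE, limma adjusted p = 0.0231). A second Ccl7 probe gave -1.67. Relb, a subunit of NF-kappaB, had 930 and 1029 under TM, 2191 and 2275 under TG and 580 and 592 in untreated cells (-1.19 ± 0.17, SE, limma adjusted p = 0.00261). Il23a, the cytokine subunit p19, Cd14, the lipopolysaccharide coreceptor, and the transcriptional repressor Gfi1, named after their values were seen, differed by -1.29, -1.27 and -1.25.

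Slc2a6, Gch1, Slc20a1 and Kcnk5 were among the 12 lowest called genes. Slc2a6, a facilitative glucose transporter, had 1337 and 1306 under TM, 4871 and 4362 under TG and 327 and 279 in untreated cells (-1.80 ± 0.33, SE, limma adjusted p = 0.0185). Gch1, the first enzyme of tetrahydrobiopterin synthesis, had 758 and 622 under TM, 2385 and 1900 under TG and 811 and 475 in untreated cells, so only TG stood apart (-1.63 ± 0.31, SE, limma adjusted p = 0.0231). Slc20a1, a phosphate transporter, had 829 and 643 under TM, 2348 and 1923 under TG and 585 and 436 in untreated cells (-1.54 ± 0.23, SE, limma adjusted p = 0.00422). Its other probes, near background, gave 0.09 and -0.31, and the mean of its probes was not called. Kcnk5, a potassium channel, had 666 and 530 under TM, 1703 and 1343 under TG and 1169 and 1039 in untreated cells (-1.35 ± 0.21, SE, limma adjusted p = 0.00724). Here TM was below untreated and TG above it, with no overlap, and again the mean of the probes was not called.

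Clk4, Taf1d, Snhg16 and Pvt1 were also among the 12 lowest called genes. Clk4, a kinase of splicing factors, had 5152 and 5782 under TM, 13650 and 13390 under TG and 4690 and 4068 in untreated cells (-1.31 ± 0.21, SE, limma adjusted p = 0.00829), and its other probes gave differences of -1.31 to -0.21. Taf1d, a subunit of the RNA polymerase I selectivity factor, had 2186 and 2333 under TM, 7140 and 7412 under TG and 1578 and 1536 in untreated cells (-1.69 ± 0.31, SE, limma adjusted p = 0.0177), but a second probe gave -0.08. For Clk4 and Taf1d the mean of all probes was not called. Snhg16, a small nucleolar RNA host gene, had 6018 and 4336 under TM, 17260 and 11610 under TG and 2276 and 1550 in untreated cells (-1.47 ± 0.29, SE, limma adjusted p = 0.0344). Pvt1, a long noncoding RNA, had 924 and 678 under TM, 2463 and 1913 under TG and 812 and 680 in untreated cells (-1.46 ± 0.31, SE, limma adjusted p = 0.0469). In Taf1d and Pvt1 the untreated arrays lay near the TM arrays, and the call of Pvt1 was lost without a filter on dim probes, at the looser background level and after normexp correction.

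The remaining 13 genes lower under TM differed by 2-fold to 2.44-fold. Besides those named above they held Napb, a SNAP protein of membrane fusion, Card10, a scaffold of NF-kappaB signalling, and Tmem41b, an ER membrane lipid scramblase, all named after their values were seen.

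Of 28 cholesterol and fatty acid synthesis genes 0 were called in either direction, and 1 (Insig1) was lower with the block, against 0.308% of all genes. Their median was -0.35, and 16 of the 28 lay below TG without overlap, against 23.4% of all genes. ER-Golgi transport (59 genes, median -0.22) and the aminoacyl-tRNA synthetases (19 genes, median -0.22) had 0 calls in either direction, as had the cell cycle list (40 genes, median 0.02).

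**Figure D4:**
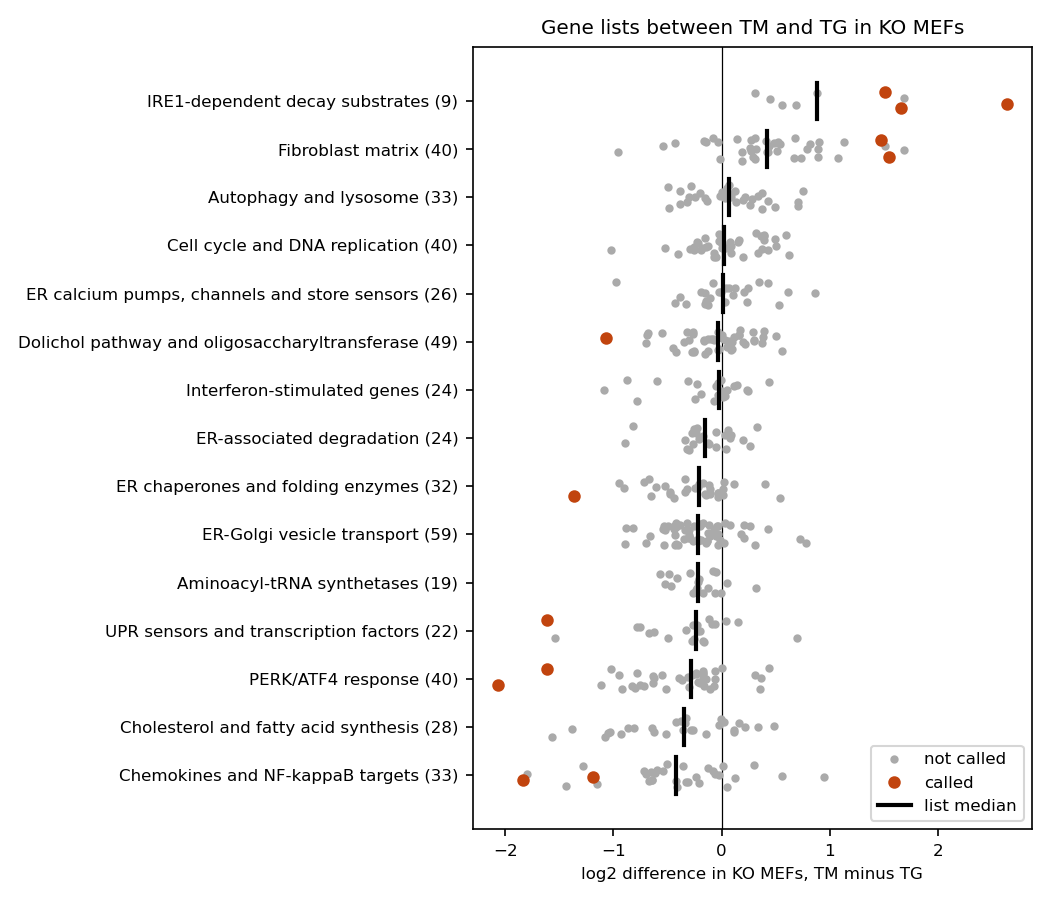
Log2 difference between TM and TG in KO MEFs (horizontal axis) for the measured genes of 15 lists, with the number of genes in parentheses; grey points were not called, larger coloured points were called and black bars are list medians. The IRE1-dependent decay substrates (median 0.88) and fibroblast matrix genes (0.42) lie to the right, the chemokines and NF-kappaB targets (-0.42) to the left. Lists can share genes, as the decay substrates and matrix genes share Col6a1.

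Untreated KO arrays were nearer to TM than to TG in mean log2 intensity for 21 of the 29 genes higher under TM and for 22 of the 25 lower under TM. This is a description of levels, since the TM and TG arrays chose the genes and, by the printed array names, the untreated arrays were on other chips.

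The genes called in KO MEFs were set beside the same contrast in WT MEFs. Since they were chosen for large differences in KO, smaller values in WT follow in part from that choice. The 29 genes had a median of 1.35 in KO and 0.45 in WT MEFs, with 25 of 29 above 0 in WT, against 51.2% of all genes. The 25 had -1.29 in KO and -0.28 in WT, with 23 of 25 below 0 in WT, against 48.6% of all genes. Across all 13325 genes the KO and WT differences, which share no array, correlated at r = 0.482, as a description across genes that are not independent. For 8 of the 29 and 2 of the 25, both drugs left WT MEFs below background, among them Scara3 with 154 and 148 under TM and 170 and 121 under TG. No fold can be given for these genes, although the sign counts above include them. In WT MEFs limma called 0 genes higher (0%) and 0 lower (0%), with 439 genes at an unadjusted p under 0.05, and with the block 2 (0.015%) higher and 6 (0.045%) lower. For the KO effect minus the WT effect 0 genes were called in either direction (0%), with or without the block, with 375 at an unadjusted p under 0.05 without it.

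These counts depended on the arrays fitted. In a fit of only the 8 TM and TG arrays 9 genes (0.0675%) were higher and 35 (0.263%) lower in WT MEFs, and the effect was higher in KO than in WT for 20 genes (0.15%) and lower for 11 (0.0826%). With the block added, a fit chosen after seeing the data, the difference was called for 53 genes (0.398%) and 35 genes (0.263%).

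The interferon-stimulated genes, whose products restrain viruses, had different medians in the genotypes. In KO MEFs their median difference was -0.02, with 13 of 24 below 0. There 8 were lower and 4 higher under TM without overlap, against 23.4% and 23% of all genes. The median in WT MEFs was -0.77, with 23 of 24 below 0. In WT MEFs 20 were lower and 0 higher under TM without overlap, against 19.2% and 21.3% of all genes. Without the block, 0 were called in either genotype. With the block 2 (Mx2 and Igtp) were called lower in WT MEFs, against 0.045% of all genes, and 0 in KO MEFs. Usp18, which dampens interferon signalling, had 693 and 510 under TM and 1288 and 926 under TG in KO MEFs (-0.88 ± 0.85, SE), and differed by -2.65 in WT MEFs. Its KO effect minus its WT effect did not pass the test on all arrays. In the fit of the 8 arrays with the block, 8 of the 24 genes were called, Usp18, Isg15, Ifit3, Rsad2 and Irf9 among them. That fit was chosen after seeing the data, and it called 0.398% of all genes higher and 0.263% lower.

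**Figure D5:**
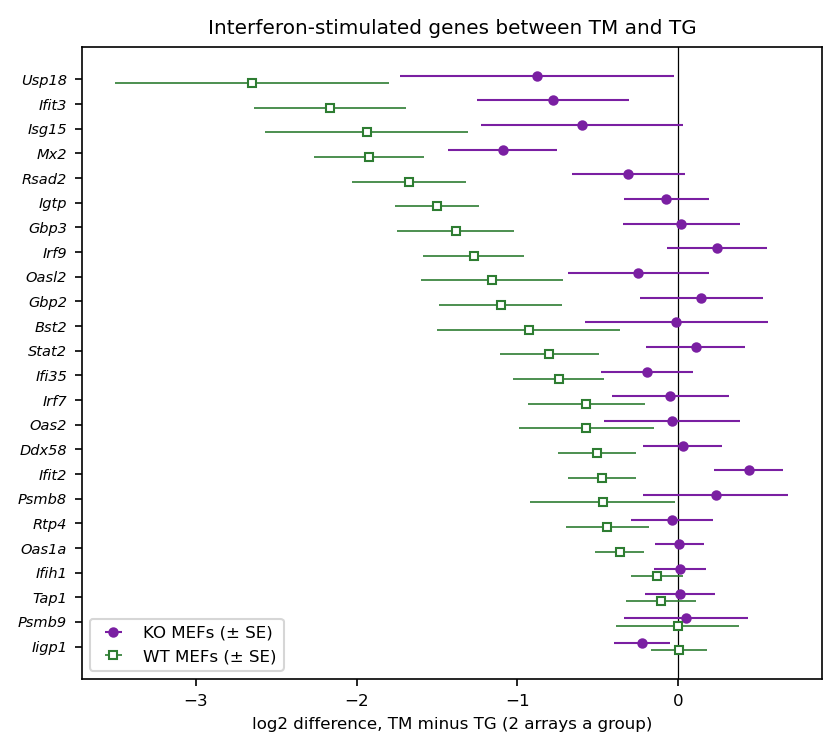
Log2 difference between TM and TG (horizontal axis, bars ± SE of the limma fit, 2 arrays a group) for 24 interferon-stimulated genes in KO MEFs (filled circles) and WT MEFs (open squares). KO values run from -1.09 (Mx2) to 0.44 (Ifit2) and WT values from -2.65 (Usp18) to 0.01 (Iigp1).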

How the data were processed

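RNA of MEFs was hybridised to Illumina Mouse-6 BeadChips, and the authors normalized the arrays with GenomeStudio (version not given in the sources used here) and deposited one linear intensity per probe and array. The deposited intensities were converted to log2. Another deposited table held 24 signal and 24 detection p-value columns that no sample label names, and it was not used. Sequencing depth does not apply, and the number of arrays limits precision.

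A probe entered the fit if any array of the 24 showed it above 233, taken as the background level. This level was set from the mode of dim probes (182). Of 45281 probes 26483 were kept, and each of 13325 genes was read from its kept probe with the highest mean. Probe names came from GEO's platform annotation, in which 34885 probes have 1 gene, 18 several and 10378 none. Differences were fitted with limma 3.58.1 in R 4.3.3 (lmFit and eBayes) on all 24 arrays with 12 group means (12 residual degrees of freedom), without a block. The p-values were adjusted by Benjamini-Hochberg over all 26483 kept probes, and the probe of each gene was read out afterwards. A call is an adjusted p under 0.05 and at least 2-fold. Figures were drawn with matplotlib 3.10.9. The procedure was tested on simulated data.

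Same-numbered arrays deviated from their group means together in all 66 pairs of groups (r from 0.136 to 0.765, and 0.543 between TM and TG in KO MEFs), so the numbers were taken to pair the arrays. The SEs and p-values given without naming the block come from the fit that ignores this pairing. Alternatives changed the probe filter, background correction, centring, arrays fitted, array weights, block, threshold, probe summary and each array left out.

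The genes and lists were chosen with earlier results of these data known. Genes named by rule were the 12 highest and 12 lowest called genes, up to 4 called members of each list, the 5 highest and 5 lowest called genes for the KO minus WT effect, and 18 fixed genes of the SIAH and ER stress systems. Other genes named were chosen after their values were seen.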

Additional observations from a re-analysis of the deposited data

Results flagged for a closer look

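In 5 named genes (Ccn5, Kcnk5, Slc20a1, Atp2a2 and Hsp90b1) the TM arrays lay on opposite sides of the TG arrays in KO and WT MEFs without overlap. Many of the named genes were chosen as called in KO MEFs, where their arrays do not overlap, so their number says nothing about them as a set. None of the 5 differences between the KO effect and the WT effect passed the limma test. For Ccn5 and Kcnk5 the WT arrays were below background under both drugs, so that their order in WT MEFs is not interpretable and no fold can be given, and the fitted KO effect minus the WT effect was 2.07 for Ccn5 (adjusted p = 0.693) and -1.64 for Kcnk5 (adjusted p = 0.19) on the log2 scale. For Slc20a1 it was -1.66 (adjusted p = 0.221), with WT arrays at 1541 and 1404 under TM and 1378 and 1328 under TG. It was -0.58 for Atp2a2 and -0.25 for Hsp90b1 (adjusted p = 1 for both). Hsp90b1 lies near the top of the intensity range.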

How the results depend on the processing

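All 54 genes called between TM and TG in KO MEFs kept their sign in every setting. The same arrays chose them and their TM and TG arrays did not overlap, so leaving out 1 array could not reverse a sign. The counts of genes higher and lower were 76 and 70 when only the 8 TM and TG arrays were fitted, 70 and 65 with the 4 KO arrays, 51 and 48 with array weights, 68 and 62 at an unadjusted p and 2-fold, and 49 and 56 at an adjusted p with no fold threshold. With the replicate number as a block they were 45 and 41 on all arrays, 76 and 72 on the 4 arrays, and 76 and 72 on the 8 arrays, the last chosen after seeing the data. Leaving out 1 array gave 6 to 11 higher and 6 to 16 lower, and fewer arrays leave a larger error. Of the 54, 40 were called after normexp correction and 39 with the mean of a gene's probes.

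In WT MEFs, where all alternatives were chosen after seeing the data, the counts were 9 and 35 on the 8 arrays, 2 and 6 with the block, 11 and 37 with both, 8 and 36 at an unadjusted p, and 0 to 0 with 1 array left out. For the KO effect minus the WT effect they were 1 and 1 without a filter on dim probes, 1 and 1 with the mean of probes, 20 and 11 on the 8 arrays, 53 and 35 on these with the block, 34 and 24 at an unadjusted p, and 0 to 0 with 1 array left out. Genes lower under TM than untreated numbered 303 on the 6 KO arrays and 294 with the block. With 1 array left out, TM against untreated gave 134 to 213 higher and 72 to 173 lower, and TG against untreated 284 to 383 higher and 167 to 306 lower. Apart from the calls and counts named here and in the results, the block ended no call between TM and TG in KO MEFs. The cause of these shifts was not tested. Duplicates were 2-fold or more apart for 0.317% (TM) and 0.597% (TG) of kept probes in KO MEFs. In WT MEFs this was 0.166% (TM) and 0.0453% (TG), against 1.85% to 8.58% in the untreated and deprived groups. The main fit pools all groups into 1 spread per probe, and a gene that was not called cannot be read as equal under both drugs. Signals near the background level of 233 limit what can be compared.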
